A study of Homo sapiens with 8 samples.

Results

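Keratinocyte identity is kept by a small set of transcription factors, and 10 of them were followed here through psoriasis-like cytokine stimulation: TP63, KLF4, KLF5, GRHL1, GRHL2, GRHL3, OVOL1, ZNF750, GATA3 and HES1. They were chosen by name, as the rows of the expression table whose Entrez gene identifier belongs to these symbols, with no cut on their values. Earlier results of these data were known when the choice was made. All 10 were found among the 17131 genes of the table, and all 10 were among the 12434 genes with enough counts to be tested.

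p63, the product of TP63, opens and holds the enhancers of stratified epithelia and keeps basal keratinocytes in their lineage. It is made from alternative start sites, as TA forms with a transactivation domain and as shorter ΔN forms that dominate in the basal epidermis. ZNF750 and KLF4 act after p63 and drive the late differentiation program, while KLF5 accompanies proliferation and epithelial identity. The grainyhead-like factors GRHL1, GRHL2 and GRHL3 govern desmosomes, cell junctions and the barrier, OVOL1 holds back proliferation and mesenchymal genes, GATA3 takes part in barrier lipid formation, and HES1 is a repressor switched on by Notch receptors that keeps spinous cells from maturing early.

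RNA was sequenced from wild-type HaCaT cells, an established, spontaneously immortalised line of human keratinocytes, so that a single line with its own mutations stands for the epidermis. All 8 libraries came from cells given M5, a cocktail of 5 cytokines that puts keratinocytes into a psoriasis-like state. The cytokines were oncostatin M, TNF-α, IL-1α, IL-17A and IL-22, at 10 ng/mL each for 24 h. The groups differ in OTS514, an inhibitor of the kinase TOPK. Per the methods, OTS514 was added at 10 nM for 12 h before M5 and then given together with M5. The labels conflict: libraries titled M5_O5, which reads as M5 with OTS514, have no treatment entered, while the TOPK inhibitor is entered for those titled M5. The 4 libraries titled M5_O5 and the 4 titled M5 were therefore compared by title, and each direction below is that of M5_O5 relative to M5, which holds for inhibitor against none only if the titles are right and is the reverse if the entered treatment is right.

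Library totals ran from 16113015 to 16922693 counts in M5_O5 and from 13708055 to 16847599 in M5, where replicate 1 was the smallest. All 11 keratinocyte markers exceeded 1 TPM (a level corrected for transcript length and library size), with summed levels of 18517 to 22305 TPM in M5_O5 and 20952 to 22684 in M5. The 8 fibroblast markers summed to 10.3 to 10.8 TPM in M5_O5 and 13.1 to 15.4 in M5, nearly all of it COL1A1. Of 7 melanocyte markers 6 were found, none of which reached 1 TPM. They summed to 1.14 to 1.50 TPM in M5_O5 and 0.90 to 1.16 in M5. Of 8 leukocyte markers 7 were found, with PTPRC, CD4 and CSF3R at 0 in every library. They summed to 108 to 125 TPM in M5_O5 and 123 to 140 in M5, most of it CD68 and CD14. Genes of mitosis moved most clearly with the groups: the summed level of 25 G2/M genes was 231 to 264 TPM in M5_O5 and 80.6 to 184 in M5, with replicate 1 holding the highest value in M5, and the part of cell cycling in the results below was not tested. No unstimulated culture was analysed here, and nothing states that the libraries of a group came from separate experiments, so p-values measure the spread between these samples, which may be technical.

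Because TP63 leads the set and its start site decides which protein is made, the first coding exon of each form is shown. Both are on the plus strand of chromosome 3 in GRCh38 as annotated by GENCODE, ΔN at chr3:189789801-189789842 and TA at chr3:189631516-189631577, with the start codons 158285 bases apart. The start codon is in capitals, and only coding bases are given.
ΔN first coding exon: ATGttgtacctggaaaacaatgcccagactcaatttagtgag
TA first coding exon: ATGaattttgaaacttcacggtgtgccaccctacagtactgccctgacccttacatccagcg

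The 10 factors spanned a wide range of levels. Over the 8 libraries, TP63 was the most abundant at a mean of 236 TPM (range 213 to 269), followed by KLF5 at 152 (132 to 179), and neither range met that of its neighbour. HES1 at 34.4 (31.2 to 39.9), GRHL1 at 32.9 (27.2 to 38.9) and OVOL1 at 27.2 (25.3 to 29.6) formed a middle group in which each overlapped the next. GRHL2 at 17.9 (14.3 to 19.97), KLF4 at 14.6 (13.2 to 16.1) and GRHL3 at 13.1 (11.9 to 14.7) again overlapped in turn, although KLF4 lay below GRHL2 in all 8 libraries. GATA3 at 4.70 (4.08 to 5.64) and ZNF750 at 3.08 (2.34 to 3.68) were the lowest, and both stood apart from the factor above them.

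Between the groups, 3 of the 10 factors differed: TP63, GRHL1 and ZNF750 were all lower in M5_O5, to between 66.9% and 81.9% of their M5 level. A gene passed at an adjusted p under 0.05 in edgeR's quasi-likelihood test, with Benjamini-Hochberg adjustment over all genes tested. Over all genes 37.1% passed in either direction, 17.6% lower and 19.5% higher in M5_O5, so that 3 of 10 is close to the share of genes in general. None of the factors passed in the higher direction, and the count was also 0 at an unadjusted p under 0.05 and with DESeq2, but 2 (GRHL2 and KLF4) with libraries scaled by their totals and 1 (GRHL2) without replicate 1 of M5. None reached a 2-fold difference, which 3.2% of genes passed. The groups did not overlap for these 3 factors, nor for 33.6% of all genes tested. The median log2 fold change of the 10 was -0.07, beside 0.01 for all genes tested. In bulk RNA, fewer cells with a transcript and less of it per cell cannot be told apart.

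**Figure D1:**
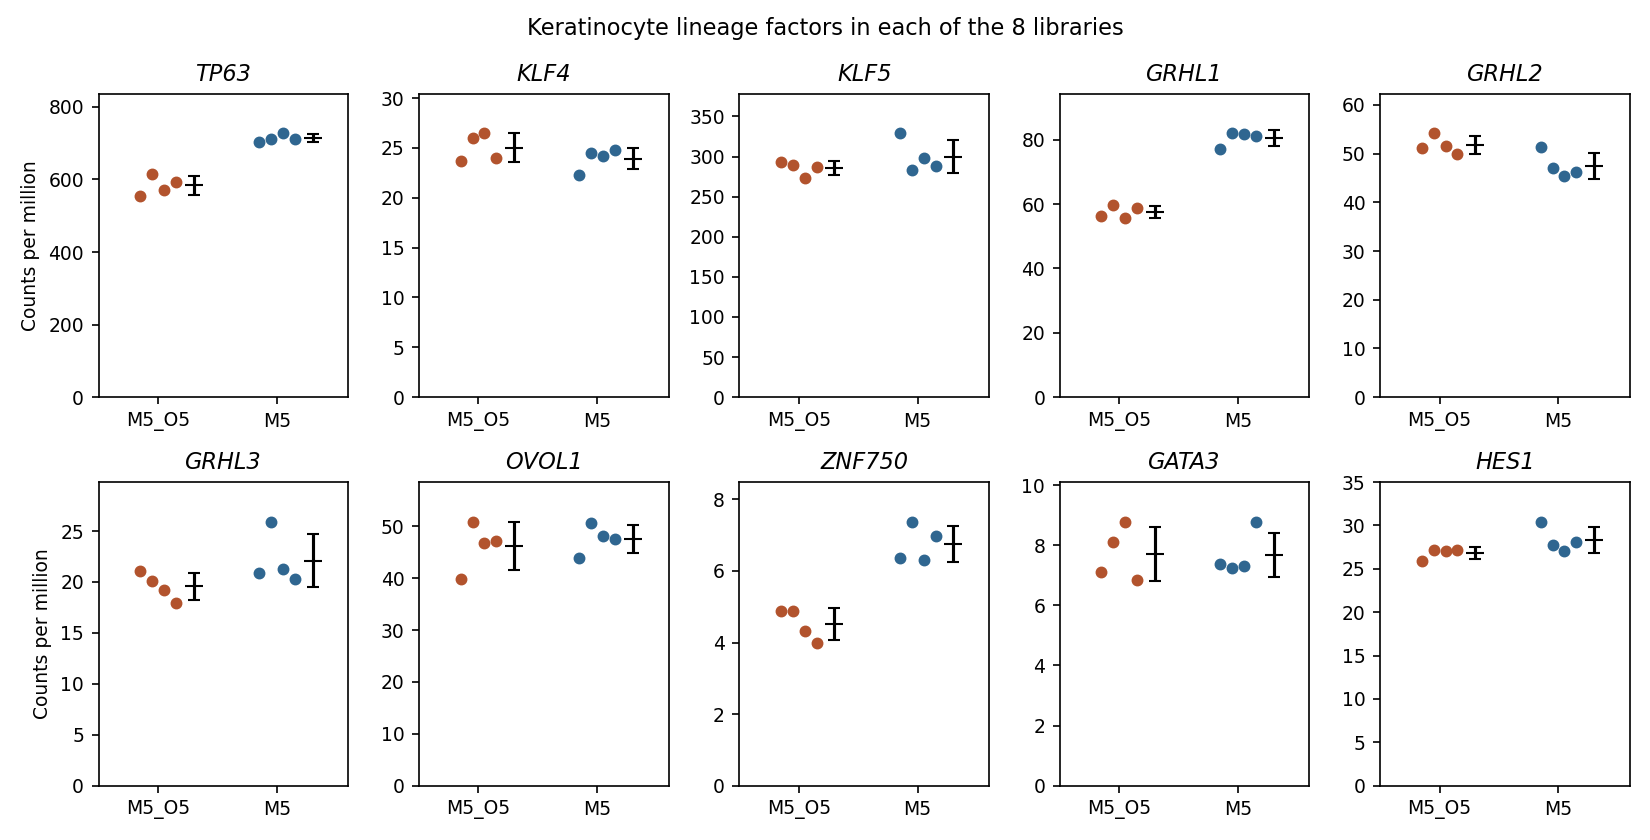
Normalised read counts (CPM, scaled by TMM, from 0 on each axis) of the 10 factors, 1 panel per gene and 1 point per library, with the mean and SD of each group in black. The groups do not overlap for TP63, GRHL1 and ZNF750, and the points of the other 7 factors overlap.

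TP63 (Entrez 8626) held normalised read counts (CPM) of 556, 615, 572 and 594 in the M5_O5 libraries, replicates 1 to 4. In the M5 libraries it held 702, 712, 728 and 712 CPM. Every M5_O5 library thus lay below every M5 library, and on this scale the M5 values were the tighter set. In TPM the groups did not overlap either, but M5 was the looser set (SD 14.7, against 7.44 in M5_O5). The means were 584 ± 26.0 and 713 ± 10.6 CPM (SD, n = 4), a log2 fold change of -0.29 (SE 0.05, 95% confidence interval -0.40 to -0.18), with an edgeR adjusted p of 0.000834. With 9560 to 11433 counts per library, counting error was small. The call depended on how abundant genes were treated: after the trend of fold change with expression level was removed from each library, the value was -0.13 with an adjusted p of 0.0615. With libraries scaled by totals it was -0.17 (adjusted p = 0.0113) and on log2(TPM + 1) -0.16 (limma, adjusted p = 0.0374).

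The table lists 9 TP63 transcripts, of which 3 link to ΔN models, 2 to a TA model and 4 to none. NM_001114980, the ΔN form with the long α tail, took 68.8% to 74.5% of all TP63 counts, so most TP63 counts were assigned to the transcript that begins its coding part at the ΔN exon printed above. Among transcripts linked to either start, the ΔN share was 98.3%, 95.02%, 96.1% and 96.8% in M5_O5 and 97.5%, 96.7%, 97.4% and 97.7% in M5. The groups overlapped, at 96.6% ± 1.38 and 97.3% ± 0.425 (SD, n = 4), and they were not told apart (exact permutation test, two-sided p = 0.4). The counts of single transcripts are estimates, both TA links go to the same model, and the 4 unlinked transcripts held 9.60% to 15.2% of TP63 counts.

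ZNF750 (Entrez 79755), the zinc finger protein that acts after p63 in late differentiation, had the lowest level of the set, and its log2 fold change, the farthest from 0 with TMM, had an interval that took in all of that of GRHL1. Its values were 4.88, 4.88, 4.33 and 3.98 CPM in M5_O5 and 6.35, 7.38, 6.32 and 6.98 CPM in M5. No M5_O5 library reached the lowest M5 library. The means were 4.52 ± 0.444 and 6.76 ± 0.515 CPM (SD, n = 4), the log2 fold change was -0.58 (SE 0.12, interval -0.84 to -0.32), and the edgeR adjusted p was 0.00195. These values rest on 67 to 85 counts per library in M5_O5 and 87 to 113 in M5. ZNF750 lies within TBCD, a tubulin-folding gene on the opposite strand whose exons do not overlap its own and which was higher in M5_O5 (0.30, adjusted p = 0.00521); use of strand in the counting is not stated.

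KLF4 (Entrez 9314), the Krüppel-like factor of barrier formation, gave 23.7, 26.0, 26.5 and 24.0 CPM in M5_O5 and 22.3, 24.5, 24.2 and 24.8 CPM in M5. The groups were interleaved, and its log2 fold change of 0.06 had an interval of -0.09 to 0.21 (edgeR adjusted p = 0.502). KLF5 (Entrez 688), found in proliferating basal cells, gave 293, 290, 274 and 287 CPM in M5_O5 and 329, 283, 298 and 289 CPM in M5, with replicate 1 of M5 above the rest. Its log2 fold change was -0.07 (interval -0.19 to 0.06, adjusted p = 0.376). Both intervals end short of the -0.29 of TP63, whose own interval of -0.40 to -0.18 overlaps that of KLF5. Whether KLF5 and TP63 differed in their change was not tested.

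Of the grainyhead-like genes, 1 of 3 passed, beside 37.1% of all genes tested. GRHL1 (Entrez 29841), which acts on desmosomal genes, gave 56.2, 59.6, 55.5 and 58.8 CPM in M5_O5 and 77.0, 82.0, 81.7 and 81.2 CPM in M5. The gap between the groups was wider than the range of either, and the adjusted p was the lowest of the 10 factors. The means were 57.5 ± 1.98 and 80.5 ± 2.35 CPM (SD, n = 4), 71.4% of the M5 level, at a log2 fold change of -0.49 (SE 0.05, interval -0.60 to -0.37) and an edgeR adjusted p of 1.6e-05. GRHL2 (Entrez 79977), which sustains E-cadherin and other junction genes, gave 51.2, 54.2, 51.6 and 49.9 CPM in M5_O5 and 51.5, 47.0, 45.3 and 46.2 CPM in M5. Replicate 1 of M5 sat among the M5_O5 values, and the log2 fold change of 0.12 (interval -0.005 to 0.25) did not pass (adjusted p = 0.122), whereas without that library it was 0.16 with an adjusted p of 0.034. GRHL3 (Entrez 57822), needed for the cornified barrier and for TGM1, gave 21.0, 20.1, 19.2 and 17.9 CPM in M5_O5 and 20.9, 25.9, 21.3 and 20.3 CPM in M5. The groups overlapped, at a log2 fold change of -0.18 (interval -0.37 to 0.02, adjusted p = 0.139). It overlaps STPG1 on the opposite strand, outside the exons of both, which was higher in M5_O5 (0.61, adjusted p = 0.00195), while exons of GRHL2 and OVOL1 overlap antisense genes that were not analysed here.

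**Figure D2:**
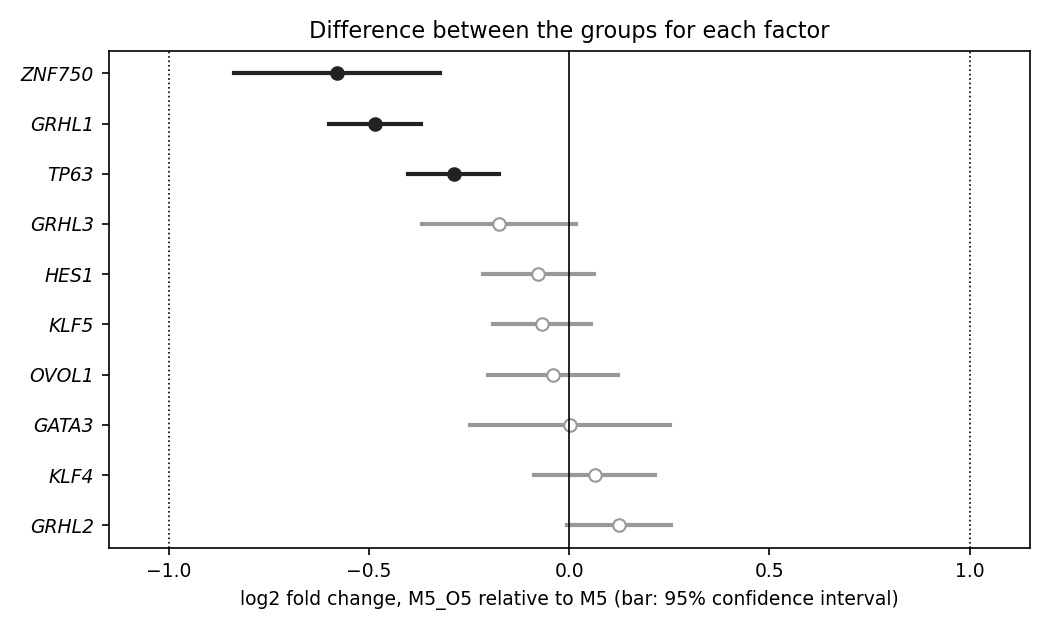
log2 fold change of M5_O5 relative to M5 for each factor, with the 95% confidence interval as a bar and dotted lines at 2-fold. Filled points passed at an adjusted p under 0.05: ZNF750 at -0.58, GRHL1 at -0.49 and TP63 at -0.29, while the open points of the other 7 factors have intervals that take in 0.

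OVOL1 (Entrez 5017), the zinc finger repressor, gave 39.9, 50.9, 46.8 and 47.2 CPM in M5_O5 and 43.9, 50.5, 48.2 and 47.5 CPM in M5. Replicate 1 was the lowest library of both groups, and the log2 fold change was -0.04 (interval -0.20 to 0.12, adjusted p = 0.701). GATA3 (Entrez 2625) gave 7.09, 8.10, 8.77 and 6.83 CPM in M5_O5 and 7.37, 7.25, 7.30 and 8.78 CPM in M5. Its groups covered the same range, with an adjusted p of 0.991 and an interval of -0.25 to 0.25, which makes it, with ZNF750, the least precise of the set. The counts assigned to its 4 transcripts also swapped between libraries, the leading one taking between 0% and 74.0%, so no statement is made on its forms.

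HES1 (Entrez 3280), the Notch target, gave 25.9, 27.2, 27.0 and 27.2 CPM in M5_O5 and 30.4, 27.7, 27.0 and 28.0 CPM in M5. The values lay close together in both groups, and the log2 fold change of -0.08 (interval -0.22 to 0.06) did not pass (adjusted p = 0.377). Its promoter is shown because it carries the elements through which Notch and HES1 itself are known to act. The 250 bases before its RefSeq start in GRCh38.p14 (chr3:194135898-194136147, plus strand) follow, with the RBPJ motif GTGGGAA at position -85 and the N-boxes CACNAG, to which HES proteins bind, at -165, -132 and -58 in capitals, counted from the start site and searched on both strands.
HES1 promoter: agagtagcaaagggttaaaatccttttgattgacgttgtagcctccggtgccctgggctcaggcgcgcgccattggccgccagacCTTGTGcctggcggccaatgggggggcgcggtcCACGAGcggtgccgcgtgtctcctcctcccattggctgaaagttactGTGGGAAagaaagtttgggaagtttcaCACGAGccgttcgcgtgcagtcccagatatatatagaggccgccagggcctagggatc
Of 35116 promoter windows of this length, 5.43% hold the RBPJ letters and 32.0% an N-box, so the latter is common. RefSeq windows were at hand for 7 of the 10 factors, TP63 by its TA start only, and among these the RBPJ letters occurred in HES1 alone and N-boxes also in GATA3 and KLF5. Neither the grainyhead motif AACCGGTT, held by 0.117% of all windows, nor the KLF motif CCACACCC, held by 2.97%, was in any of them, which says only that these letters are absent from these windows.

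Whether the factors changed by different amounts was examined by ratios of counts within a library, which do not depend on scaling between libraries. They do keep any trend of fold change with expression level, and the ratios were not run with that trend removed. With it removed, the log2 fold changes were -0.13 for TP63, 0.03 for KLF4, -0.01 for OVOL1 and -0.77 for ZNF750. GRHL1 relative to GRHL2 stood at 1.10, 1.10, 1.08 and 1.18 in M5_O5 and at 1.496, 1.74, 1.802 and 1.76 in M5. The difference was -0.61 on the log2 scale, with no overlap. Corrected for length, the level of GRHL1 in TPM was 1.37 to 1.54 times that of GRHL2 in M5_O5 and 1.95 to 2.57 times in M5. KLF4 relative to TP63 was higher in M5_O5 in every library, at 0.0405 to 0.0464 against 0.0319 to 0.0349, a log2 difference of 0.35. OVOL1 relative to TP63 was likewise higher, at 0.0718 to 0.0827 against 0.0625 to 0.0711, a log2 difference of 0.25. For each of these 3 ratios the p of an exact permutation test (two-sided) was 0.0286, the lowest value that 4 against 4 libraries allow, and 0.0571 after Benjamini-Hochberg adjustment over the 6 ratios examined, so none passed the adjustment. GRHL3 relative to GRHL2 (-0.30) and ZNF750 relative to TP63 (-0.29) had an exact p of 0.0571, 0.0686 when adjusted, and KLF4 relative to KLF5 (0.13) had an exact p of 0.286. It was thus not shown that ZNF750 was reduced by more than TP63. The ratios of KLF4, OVOL1 and ZNF750 are all taken over TP63 and are not independent of each other. By themselves, with TMM, KLF4 (0.06) and OVOL1 (-0.04) did not pass, while TP63 did (-0.29).

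**Figure D3:**
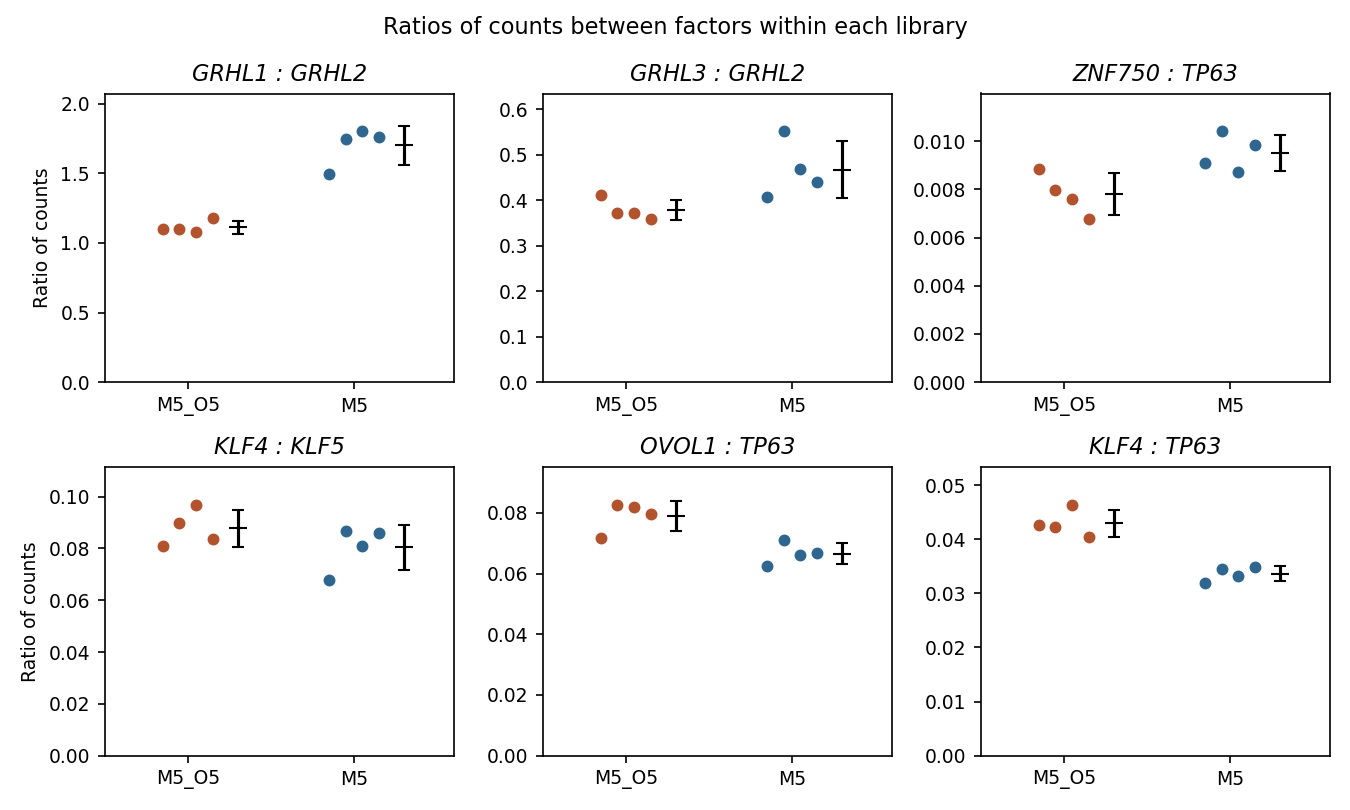
Ratio of counts between pairs of factors within each library, 1 panel per pair and 1 point per library, with the mean and SD of each group in black and axes from 0. The groups are apart for GRHL1 to GRHL2, OVOL1 to TP63 and KLF4 to TP63 and overlap for the other 3 pairs.

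Of the transcription factors that share the epidermis with these 10, 59 were listed and 51 tested, and 23 were lower and 4 higher in M5_O5 (median log2 fold change -0.17). That is 52.9% of those tested, beside 37.1% of all genes, of which 17.6% were lower and 19.5% higher. SOX9, a factor of hair follicle and epithelial progenitor cells, was at 32.3 ± 1.83 CPM in M5_O5 and 56.6 ± 3.54 in M5 (n = 4), a log2 fold change of -0.81 (edgeR adjusted p = 1.59e-06). MAF, which takes part in keratinocyte differentiation, was lower by a similar amount, at 34.9 ± 1.04 against 58.5 ± 2.70 CPM (-0.74, adjusted p = 1.02e-06). ETS1 was also lower, at 215 ± 8.40 against 350 ± 14.1 CPM (-0.70, adjusted p = 9.57e-07). PRDM1, known from the last steps of cornification, was at -0.63 (adjusted p = 2.91e-05) and the T-box factor TBX3 at -0.50 (adjusted p = 3.94e-05). AHR, the aryl hydrocarbon receptor, went the other way, at 281 ± 13.0 against 194 ± 26.2 CPM (0.53, adjusted p = 0.000168). These 6 had the largest changes among those that passed without overlap between the groups, so their lack of overlap was fixed by the choice. ID3, named after its value was seen, also passed (0.56, adjusted p = 0.0119), with groups that overlapped.

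The list counts leaned on the scaling. With libraries scaled by their totals alone, the median of all genes moved to 0.13 and genes passing split into 3858 higher and 1008 lower, against 2420 and 2192 with TMM, and on log2(TPM + 1) the median was 0.12 and the split 3261 to 761. The other epidermal factors then counted 17 and 14 lower, with medians of -0.05 and -0.04.

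Of 27 basal genes that p63 is known to bind or keep on, all were tested, and 16 were lower and 4 higher in M5_O5, with a median log2 fold change of -0.29, beside 17.6% lower and 19.5% higher of all genes. BRCA1, a DNA repair gene, and FRAS1, a protein of the basement membrane zone, were higher, by 1.35 (edgeR adjusted p = 2.54e-05) and 1.04 (adjusted p = 0.00196). FRAS1 rests on 15 to 66 counts per library (0.09 to 0.40 TPM), and its value went as low as 0.22 under the alternative settings. Of the basal keratins, which were looked at after their values were seen, KRT14 (-0.40) and KRT15 (-0.39, adjusted p = 0.006) were lower, while KRT5, the partner of KRT14, was at -0.10 and did not pass (adjusted p = 0.299). With the expression-level trend removed, or on log2(TPM + 1), 9 of the list were lower instead of 16, with medians of -0.10 and -0.16.

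Differentiation genes, the targets of ZNF750, KLF4 and GRHL3 among others, counted 17 lower and 4 higher of 33 tested and 44 listed, with a median of -0.27, and 6 reached 2-fold. That is 63.6% of those tested, beside 37.1% of all genes, of which 17.6% were lower, 19.5% higher and 3.2% passed at 2-fold. With libraries scaled by totals 15 were lower (median -0.15), and on log2(TPM + 1) 11 were (median -0.14). KRT1, the first keratin of suprabasal cells, was at 10.8 to 16.5 CPM in M5_O5. In M5 it was at 117 CPM in replicate 1 and at 20.1 to 47.0 CPM in the others. Its log2 fold change was -2.04 (edgeR adjusted p = 0.00227) and -1.28 without replicate 1 of M5. KRT4, KRT13 and KRT10, looked at after their values were seen, also reached 2-fold (-1.88, -1.46 and -1.04). For each the groups overlapped and replicate 1 of M5 was again the highest. KRT13 was at 236 CPM there, at 45.7 to 95.4 in the other M5 libraries and at 33.0 to 48.9 in M5_O5. LCE3E and LCE3D, late cornified envelope genes, were lower by 1.17 and 1.07 on the log2 scale (adjusted p = 0.000558 and 7.99e-05). The 4 genes that were higher, looked at after their values were seen, went the other way. They were KLK5 (0.92, edgeR adjusted p = 2.93e-06), FLG (0.58, adjusted p = 0.0018), KLK7 (0.39, adjusted p = 0.0255) and DMKN (0.32, adjusted p = 0.00481). TGM1, the transglutaminase under GRHL3 and looked at after its value was seen, was at -0.22 and did not pass (adjusted p = 0.112).

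The Notch pathway, which lies upstream of HES1, counted 14 genes lower and 2 higher of 32 tested and 40 listed. That is 50% of those tested, beside 37.1% of all genes. NOTCH3, a receptor, was at 41.8 ± 1.65 CPM in M5_O5 and 62.5 ± 2.76 in M5 (n = 4, -0.58, edgeR adjusted p = 8.35e-06). JAG1, a ligand that is also on the list of basal p63 genes, was at 274 ± 17.2 and 392 ± 11.4 CPM (-0.52, adjusted p = 1.47e-05). PSEN2, a catalytic subunit of γ-secretase, was higher (0.53, adjusted p = 0.00453). HES1 itself did not pass, as given above, and whether its change differed from theirs was not tested. The median of the pathway was -0.11 with TMM, 0.01 with libraries scaled by totals and 0.02 on log2(TPM + 1), where 9 and 6 genes were lower, so the sign of the list as a whole followed the scaling.

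Chromatin regulators that work with p63, KLF4 or ZNF750 counted 6 lower and 3 higher of 22 tested (median -0.09). That is 40.9% of those tested, close to the 37.1% of all genes. With the other scalings named above, 2 and 1 were lower, with medians of 0.02 and 0.04. The 6 became 3 without replicate 4 of M5_O5, and likewise without replicate 2 or replicate 4 of M5. With each library left out the count lower ran from 3 to 8, and under the other settings from 1 to 9. UHRF1 and its partner DNMT1, which maintain DNA methylation through replication, were higher in M5_O5, by 1.31 (edgeR adjusted p = 7.77e-06) and 0.48 (adjusted p = 0.000203). KDM6B, the demethylase of repressive histone marks that is switched on in differentiation, was lower, at 133 ± 2.06 against 183 ± 8.69 CPM (n = 4, -0.47, adjusted p = 1.67e-05). Of 8 factors of epithelial-to-mesenchymal transition, which OVOL1 and GRHL2 oppose, 4 had enough counts to be tested. FOXC2 was the only one of these to pass, beside 37.1% of all genes. It was at 2.41 ± 0.148 CPM in M5_O5 and 4.99 ± 0.461 in M5 (-1.05, edgeR adjusted p = 6.57e-05).

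All 25 G2/M genes were higher in M5_O5, with a median log2 fold change of 1.14. MYBL2, a driver of mitotic transcription, was at 9.16 ± 1.53 CPM in M5_O5 and 2.13 ± 0.987 in M5 (n = 4, 2.12, edgeR adjusted p = 1.15e-05), and DLGAP5 and TTK, of the mitotic spindle and its checkpoint, were at 1.54 (adjusted p = 0.000228) and 1.45 (adjusted p = 0.000157). No lineage factor had a difference of this size in either direction.

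**Figure D4:**
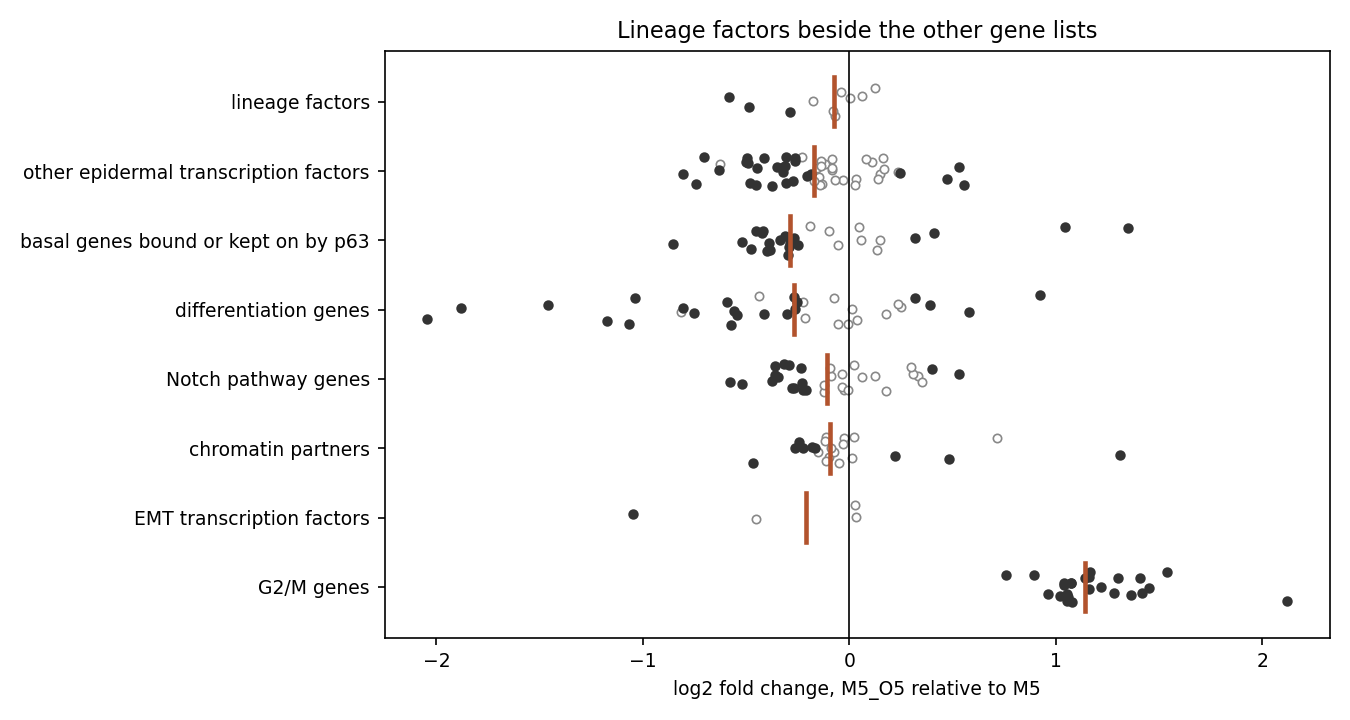
log2 fold change of M5_O5 relative to M5 for every tested gene of each list, filled where the adjusted p was under 0.05 and open otherwise, with the list median as a coloured bar. The 10 lineage factors lie between -0.58 and 0.12, with a median of -0.07, while all 25 G2/M genes lie to the right of 0.

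**Figure D5:**
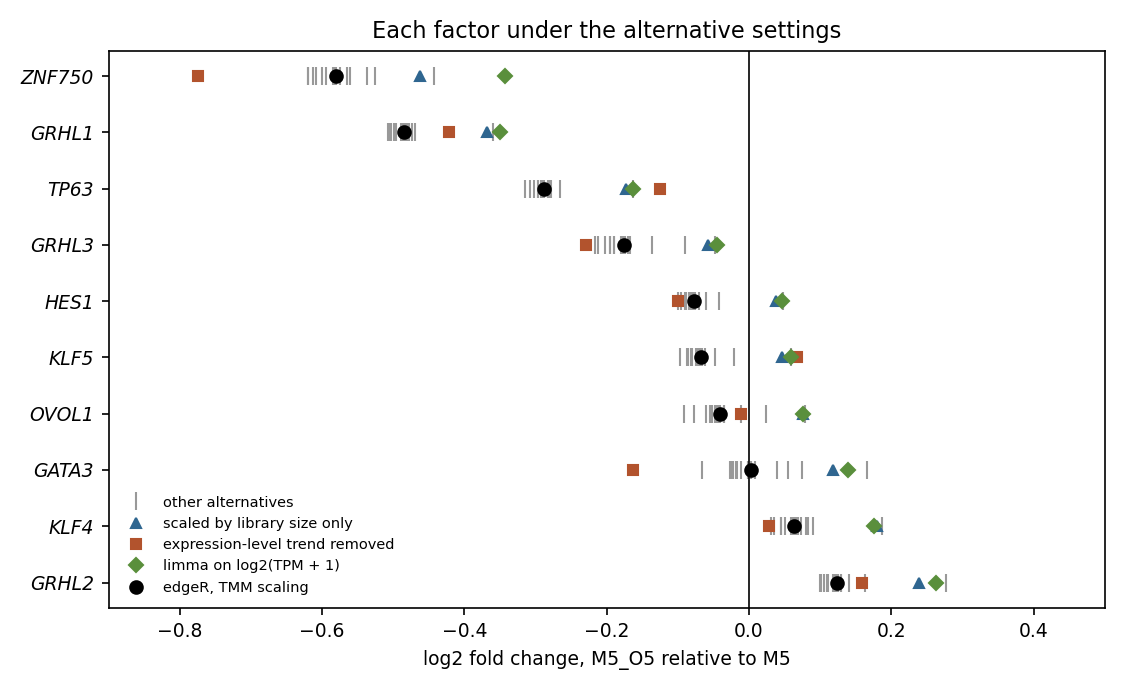
log2 fold change of M5_O5 relative to M5 of each factor under every setting tried, with the value reported above as a black circle and 3 alternatives in their own symbols. ZNF750, GRHL1 and TP63 stayed left of 0 under each setting, as did GRHL3, which did not pass. GRHL2 and KLF4 stayed right of 0. KLF5, HES1 and OVOL1 crossed 0 when libraries were scaled by their totals or TPM was used, and GATA3 crossed it under some settings.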

How the data were processed

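Libraries were made from total RNA with an mRNA kit, per the labels. The authors mapped filtered reads with HISAT2 2.1.0 and quantified them with StringTie 2.1.5, per the methods, while the submitters' processing notes also name Bowtie2 2.2.5, RSEM 1.2.8 and a mouse build, although the transcripts are human. They deposited an estimated count, a TPM and an FPKM per transcript and library. The deposited estimated counts were not normalized, the deposited TPM was scaled to a fixed sum per library, and the deposited FPKM was not used. No gene positions were taken from the table.

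Estimated counts of 86639 transcripts (53.8% of values not whole) were summed per Entrez gene and rounded. Symbols came from RefSeq for GRCh38.p14 (17072 of 17131 genes), transcript models and overlapping genes from GENCODE 29. The 12434 genes kept by filterByExpr were compared with edgeR 4.0.16 in R 4.3.3 (TMM, quasi-likelihood test, Benjamini-Hochberg adjustment, 4 against 4 libraries), with a biological coefficient of variation of 7.42%, and checked on simulated data. CPM values use TMM-scaled library sizes. Ratios used counts plus 0.5. Each pair of replicates differed beyond counting noise (chi-square per gene of 2.01 to 16.2, where counting alone gives about 1), and all were kept.

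Named genes were the 10 factors and, from each other list, the 3 (6 for other epidermal factors) with the largest change among those that passed, had a mean of at least 1 CPM and did not overlap. A gene of the basal list that this rule names is not reported here. The factors and lists were chosen with earlier results of these data known. Alternatives were DESeq2 1.42.0, limma 3.58.1 on log2(TPM + 1) and log2(TPM + 0.1), both on a scale that understates changes of low genes, RLE and library-size scaling, 2 filters, first placements of transcripts only, removal of the expression-level trend by loess, unadjusted p-values, a pseudocount of 5, a block by replicate number, and omission of each library in turn.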

Additional observations from a re-analysis of the deposited data

Results flagged for a closer look

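In groups of 4 libraries, a library was picked out when its gap to the nearest other exceeded Dixon's 95% critical value. This was so for 8 of 80 groups, over the named genes, 6 ratios and 2 TP63 transcript shares, where chance gives about 4. Among the lineage factors, GRHL1 was lowest in replicate 1 of M5 (77.0 CPM, the others 81.2 to 82.0), GRHL3 highest in replicate 2 of M5 (25.9, the others 20.3 to 21.3), GATA3 highest in replicate 4 of M5 (8.78, the others 7.25 to 7.37) and HES1 lowest in replicate 1 of M5_O5 (25.9, the others 27.0 to 27.2). None of these values moved its factor across the threshold when its library was left out.

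Replicate 1 of M5 also stood apart for SOX9 (51.3 CPM, the others 57.8 to 59.0), AHR (234, the others 179 to 183) and TTK (4.16, the others 1.71 to 1.96), each time on the side of M5_O5, and TBX3 was highest in replicate 3 of M5_O5 (37.4, the others 36.3 to 36.5).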

How the results depend on the processing

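GRHL1 and ZNF750 remained lower and past the threshold under every alternative run, and TP63 under each except removal of the expression-level trend (-0.13, adjusted p = 0.0615). With library totals and log2(TPM + 1), TP63 was at -0.17 and -0.16, GRHL1 at -0.37 and -0.35, and ZNF750 at -0.46 and -0.34. With libraries scaled by totals, 2 factors passed higher, GRHL2 (0.24, adjusted p = 0.0122) and KLF4 (0.18, adjusted p = 0.0481), against an all-gene median of 0.13, and without replicate 1 of M5 there was 1, GRHL2. Leaving out each library gave 0 to 1 factors higher.

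Factors that did not pass changed sign as follows. GATA3 was at -0.017 with DESeq2, -0.012 with RLE scaling, -0.00147 without a filter, -0.00188 with first placements only, -0.16 with the trend removed and -0.066 to 0.074 with each library left out. With library totals, log2(TPM + 1) and log2(TPM + 0.1), KLF5 was at 0.046, 0.058 and 0.059, OVOL1 at 0.076, 0.076 and 0.079, and HES1 at 0.0381, 0.046 and 0.047. KLF5 was at 0.067 with the trend removed, and OVOL1 ranged from -0.091 to 0.023 with each library left out.

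Whether replicate numbers pair the samples is not stated. Same-numbered libraries correlated at 0.28, 0.17, 0.03 and -0.006, and those with different numbers at -0.30 to 0.34, which cannot settle it. With the number as a block, TP63, GRHL1 and ZNF750 still passed, at -0.29, -0.49 and -0.58, and 2703 genes were higher and 2552 lower. The exact sign-flip test of the ratios within replicate pairs gave p = 0.125, the smallest it can, for GRHL1 to GRHL2 (-0.61), KLF4 to TP63 (0.35) and OVOL1 to TP63 (0.25). With each library left out these ranged from -0.67 to -0.58, from 0.32 to 0.38 and from 0.22 to 0.29, all at an exact permutation p of 0.0571, the smallest that a two-sided test of 3 against 4 allows here. The ratios were not run with the expression-level trend removed. The widest standard errors, 0.12 for ZNF750 and GATA3, were those of the factors with the lowest levels.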
